A study of Mus musculus with 24 samples.

Results

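A set of 10 mouse genes was followed because their transcripts were higher in AGO2 knockout (KO) than in wild-type (WT) E14 embryonic stem cells from the first day of differentiation towards extraembryonic endoderm (XEN). They are Aass, Aim2, Irak3, Gfpt2, Rassf9, Sh3rf2, Scrn1, Serinc1, Nsmaf and Dusp27. The 10 were chosen by their counts in KO against WT, among 30590 gene symbols of the day 1 to 4 files and 43629 gene identifiers of the endpoint files, and all 10 had counts in both and passed the filter on low counts. Their KO and WT levels are therefore given as a description, without a test. The change from day 1 to day 4 within a genotype comes from the same libraries and is a description too. For these genes a test is read only between WT stem cells and WT XEN cells. Its XEN libraries also stand in the KO comparison of the endpoint. A choice for KO above WT there favours genes low in WT XEN, so its p-values are not independent of the choice.

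E14 is a feeder-independent embryonic stem cell line, here of 129/Ola background in every group. The WT_XEN and AGO2_KO_XEN libraries came from days 1, 2, 3 and 4 of a protocol that lasts 5 days, and each genotype and day had 2 libraries. The medium held 10 ng/mL activin A and 0.1 µM retinoic acid besides 15% serum. The 6 endpoint libraries, re-used from earlier work, were WT mESC (undifferentiated cells kept with LIF, passages 33 and 42), WT diff_XEN (columns named A and B) and AGO2_KO_diff_XEN (columns named for the KO clones C4 and 5-3). KO stem cells (2 samples) are not analysed here, and no KO level before differentiation is given. The labels do not name the clone behind the KO libraries of days 1 to 4 and do not call replicates separate cultures, so the errors and p-values given below cover library-to-library spread alone, which may be technical. In bulk libraries, fewer cells of a type and less RNA per cell cannot be told apart.

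AGO2 is the Argonaute protein that can cut a paired RNA. Like the other Argonautes it carries microRNAs, which pair through their seed (bases 2 to 8) mostly with sites in 3′ UTRs, after which the target RNA is translated less or decays. XEN cells are the culture counterpart of primitive endoderm, the source of the yolk sac endoderm, and retinoic acid with activin A drives stem cells towards this fate. The 10 genes share no single pathway. Aass encodes the bifunctional enzyme that opens lysine breakdown through saccharopine, and Gfpt2 an enzyme of the rate-limiting step of the hexosamine pathway, which makes UDP-N-acetylglucosamine. Aim2 encodes a sensor of DNA in the cytosol that builds an inflammasome, and Irak3 a kinase-like protein that restrains Toll-like and IL-1 receptor signalling. Nsmaf encodes an adaptor between the TNF receptor and neutral sphingomyelinase, Sh3rf2 a ring finger protein that acts on JNK scaffolds, and Rassf9 a Ras-association protein of recycling endosomes. Serinc1 encodes a membrane protein of the serine incorporator family, Scrn1 secernin-1, which takes part in exocytosis, and Dusp27 a phosphatase-like protein known from muscle.

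The genes lie on 6 chromosomes, none of them that of Ago2 (chromosome 15, 73095844 to 73184935, GRCm38 with GENCODE M21). Aass (23072173 to 23132986) and Scrn1 (54501173 to 54566489) lie on chromosome 6, and Aim2 (173350879 to 173466040) and Dusp27 (166098148 to 166127922) on chromosome 1. Serinc1 (57515774 to 57532530), Rassf9 (102512222 to 102549736) and Irak3 (120141648 to 120202130) lie on chromosome 10. Gfpt2 is on chromosome 11 (49794178 to 49838613), Nsmaf on chromosome 4 (6396207 to 6454271) and Sh3rf2 on chromosome 18 (42053667 to 42158960).

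Aim2 overlaps Cadm3, Irak3 overlaps Tmbim4 and the antisense gene Gm47009, Scrn1 overlaps Wipf3 and Nsmaf overlaps Sdcbp, each on the opposite strand. The libraries kept strand, but the strand setting of the counting is not given in the sources used here, so the values of these 4 genes carry that uncertainty. At day 1 the log2 difference between KO and WT was -0.11 for Cadm3, 0.61 for Tmbim4 (adjusted p = 0.0580), 0.16 for Wipf3 and -0.18 for Sdcbp, and none of these passed edgeR's quasi-likelihood test with Benjamini-Hochberg adjustment at 0.05. Of the 20 nearest tested genes on either side of the 10, that test called 1 higher in KO at day 1, Hsf2 beside Serinc1 (0.56 ± 0.14 SE, adjusted p = 0.0281), beside 13.6% of all genes called in either direction, while 4 were higher at an unadjusted p under 0.05 and 3 with DESeq2. It called none lower (3 at an unadjusted p under 0.05, and 1 with DESeq2), and their median was -0.12. At day 4, when it called 7.04% of all genes, it called none of the 20 higher (2 at an unadjusted p under 0.05, none with DESeq2). It called 1 lower, Prelid2 beside Sh3rf2 (-1.87 ± 0.28, adjusted p = 8.26e-04), and the median of the 20 was 0.14.

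Matches to microRNA seeds are shown because AGO2 carries microRNAs. The 8 microRNAs searched were chosen with the genes known, after the files had been opened. Those of miR-294 and miR-302b, stem cell microRNAs that share a seed, and of miR-92a are from RefSeq (GRCm38.p6), with the seed in capitals.
mmu-miR-294-3p: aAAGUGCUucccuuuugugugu
mmu-miR-302b-3p: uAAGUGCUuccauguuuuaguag
mmu-miR-92a-3p: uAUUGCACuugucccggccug
In the longest 3′ UTR of each gene (GENCODE M21), the 7-base match AGCACTT to the seed of miR-294 and miR-302b was found in 3 of the 10 genes, Gfpt2, Rassf9 and Serinc1, beside 16.8% of 14661 tested genes. The sites are shown with their flanks and the match in capitals.
Gfpt2: taagcccaggcAGCACTTtggtcccggct
Rassf9: caaattgttacAGCACTTaacttctcttc
Serinc1: aaaattgtgttAGCACTTattttagaaac
The match GTGCAAT to the seed of miR-92a was found in Gfpt2, Rassf9 (at 2 places) and Nsmaf, which is 3 of 10 beside 7.33% of genes. The site of Nsmaf is shown as an example.
Nsmaf: aactggtgaatGTGCAATgatagtactta
For miR-19b (TTTGCAC) 2 genes matched, Irak3 and Scrn1, beside 12.8% of genes. Gfpt2 alone matched miR-20a (GCACTTT, 13.9% of genes), at a site that overlaps its AGCACTT match, and Aim2 alone matched miR-16 (TGCTGCT, 23.6%). None of the 10 matched miR-130a (TTGCACT, 11.1%) or let-7a (CTACCTC, 10.5%). Aass, Sh3rf2 and Dusp27 held none of these matches, in 3′ UTRs of 799, 2733 and 477 bases beside a median of 1128 bases over all genes. The 3′ UTRs of the genes with matches ran from 516 (Nsmaf) to 3670 bases (Rassf9). The shares of genes given above take no account of length. A match describes letters and does not show a site in use.

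Promoters are shown for Aass, Dusp27 and Gfpt2, which were all at a lower level at day 4 than at day 1 in both genotypes. Printed are the 250 bases before the RefSeq start (GRCm38.p6), read in the direction of the gene, with motif matches in capitals (Dusp27 holds none). That of Aass is chr6:23132987-23133236 on the minus strand, that of Dusp27 chr1:166127899-166128148 on the minus strand and that of Gfpt2 chr11:49793905-49794154 on the plus strand.
Aass: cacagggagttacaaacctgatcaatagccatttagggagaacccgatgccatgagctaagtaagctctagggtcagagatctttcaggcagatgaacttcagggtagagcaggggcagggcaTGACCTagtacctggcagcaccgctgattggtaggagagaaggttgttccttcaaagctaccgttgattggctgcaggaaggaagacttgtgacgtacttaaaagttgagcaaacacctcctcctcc
Dusp27: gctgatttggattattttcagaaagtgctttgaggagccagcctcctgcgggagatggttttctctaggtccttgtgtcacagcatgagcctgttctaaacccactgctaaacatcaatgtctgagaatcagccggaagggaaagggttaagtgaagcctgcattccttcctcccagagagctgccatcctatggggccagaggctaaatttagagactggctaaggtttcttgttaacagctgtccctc
Gfpt2: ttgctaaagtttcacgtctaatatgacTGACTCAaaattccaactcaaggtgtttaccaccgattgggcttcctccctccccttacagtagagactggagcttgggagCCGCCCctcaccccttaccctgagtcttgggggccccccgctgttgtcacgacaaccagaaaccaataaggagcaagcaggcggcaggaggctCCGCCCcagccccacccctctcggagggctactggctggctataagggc
RefSeq promoters of 6 of the 10 genes were used, with a pair of starts for Irak3. Over 300 bases, from 250 before to 50 after the start, the ratio of observed to expected CpG was 0.264 in Aass, 0.277 in Aim2 and 0.162 in Dusp27, against a median of 0.714 over 15293 promoters of tested genes. It was 0.545 in Gfpt2, 0.604 in Scrn1, and 0.767 and 0.493 at the starts of Irak3. Aass, Aim2 and Dusp27 thus had few CpG letters, and the other 3 lay nearer to the median. In the same windows, searched on both strands, GGGCGG was found in 5 genes (Aass, Aim2, Irak3, Gfpt2 and Scrn1, beside 59.3% of promoters), AGGTCA in Aass and Irak3 (12.9%), CACGTG in Irak3 (9.51%) and TGACTCA in Gfpt2 (3.87%). TATAAA (7.73% of promoters), GATAAG (5.45%) and ATGCAAAT (1.36%) were found in none of the 6, and no motif searched was found in all 6.

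Read totals ran from 10601574 to 27147835 in the day 1 to 4 libraries and from 13941826 to 40139219 in the endpoint libraries. Levels below are in CPM, the count of a gene relative to edgeR's scaled library size, and differences are log2 ratios from its fit with their standard error. Ago2 was at 186 to 581 CPM in the WT and 33.8 to 148 CPM in the KO libraries of days 1 to 4, a log2 difference of -3.27, -1.75, -1.31 and -2.09 on the 4 days, and counts per gene do not show which part of it was edited. Within KO, Ago2 reads rose from day 1 to day 4 (1.74 ± 0.30, edgeR adjusted p = 1.85e-04). Of 10 primitive endoderm and XEN markers, 8, 6, 7 and 8 were called lower in KO at days 1 to 4, and 1 higher at day 2. Their summed level at day 4 was 7065 to 7419 CPM in WT and 1492 to 1844 CPM in KO. Of 8 visceral endoderm markers, 2, 2, 4 and 7 were called lower on those days and none higher. Of 8 pluripotency markers edgeR called none on days 1 to 4 (0, 1, 1 and 2 at an unadjusted p under 0.05, and 0, 0, 1 and 2 with DESeq2). Their summed level went from 4185 to 5255 CPM in WT and 6169 to 7424 CPM in KO at day 1 to 696 to 1103 CPM in WT and 251 to 556 CPM in KO at day 4. What part these shifts have in the levels of the 10 genes was not tested.

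At day 1 both KO libraries were above both WT libraries for all 10 genes, as the choice implies, beside 31.3% of 17694 genes. Their median log2 difference was 1.22, beside -0.02 over all genes. At day 2 it was so for 10 of 10 (26.9% of genes), with a median of 1.11, and at day 3 for 9 (20.9% of genes), with a median of 0.90. At day 4 it was so for 9 (26.4% of genes) while 1 gene lay below WT (27.2% of genes), and the median was 1.04. The gene that left the pattern at days 3 and 4 was Aass. Per kb of exon, the mean WT level at day 1 ran from 16.5 CPM per kb for Gfpt2, 10.3 for Serinc1, 8.99 for Dusp27 and 8.44 for Aim2 down to 0.0279 for Rassf9 and 0.0256 for Sh3rf2. In KO at day 1 the highest mean levels per kb were those of Gfpt2 (32.9), Dusp27 (24.4) and Aass (18.9), so Aass was then among the most abundant of the 10.

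**Figure D1:**
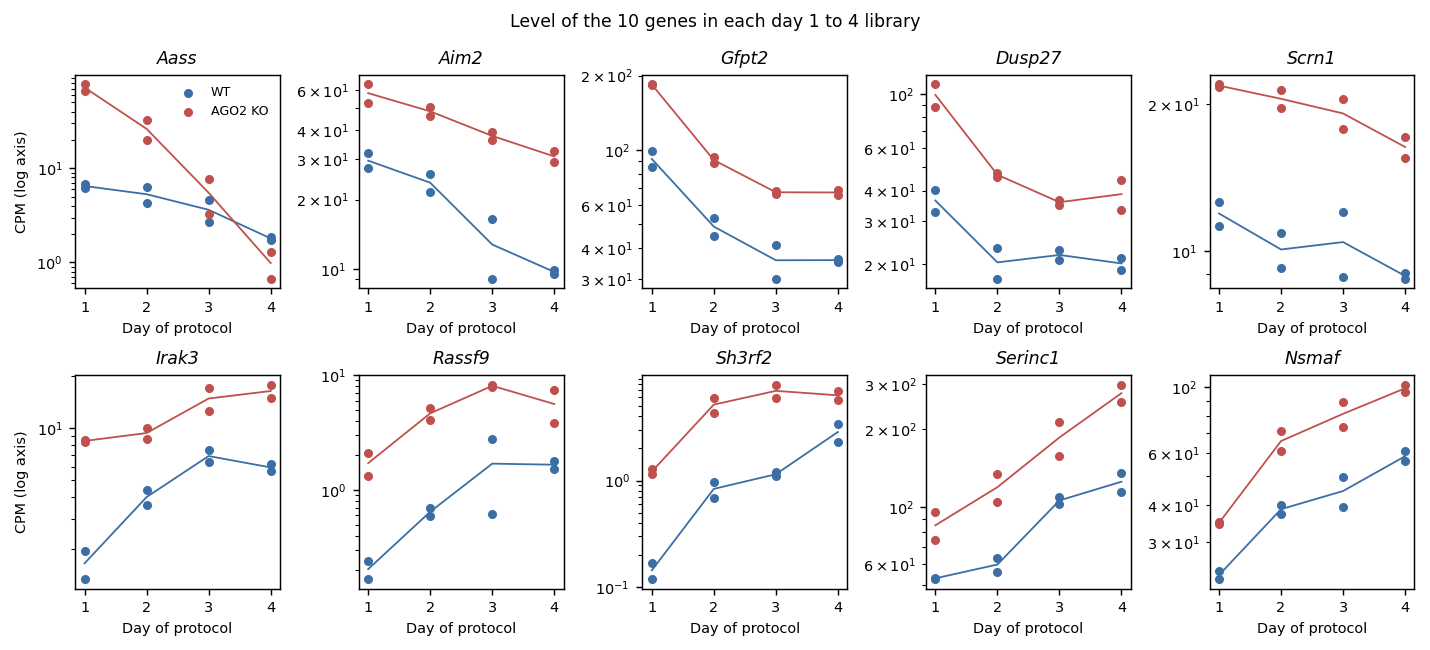
Level of each of the 10 genes (CPM, log axis, 1 scale per gene) in the 16 libraries of days 1 to 4, with points for single libraries and lines through group means, WT in blue and AGO2 KO in red. Aass starts at 65.95 and 78.05 CPM in KO and ends below WT, whereas the other 9 genes keep both KO points above both WT points on each of the 4 days.

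Aass had the largest difference at day 1 and lost it within the course. It was at 6.25 and 6.73 CPM in the WT libraries of day 1 and at 65.95 and 78.05 CPM in the KO libraries (156 and 160 reads against 1706 and 1695), an 11.1-fold difference of the fitted levels. At day 2 the WT libraries held 6.35 and 4.26 CPM and the KO libraries 32.5 and 19.9 CPM, which do not overlap. At day 3 the groups overlapped, with 2.68 and 4.58 CPM in WT and 7.70 and 3.30 CPM in KO. At day 4 the order was turned, with 1.89 and 1.72 CPM in WT and 0.676 and 1.30 CPM in KO, the latter from 9 and 21 reads. On the log2 scale the KO minus WT difference was 3.47 ± 0.37, 2.31 ± 0.36, 0.64 ± 0.39 and -0.83 ± 0.53 on the 4 days, and the day 3 value was -0.15 without KO replicate 1. Within WT, the day 4 level differed from that of day 1 by -1.85 ± 0.42, and within KO by -6.15 ± 0.46, both given as a description. WT mESC, normalised apart from the course, held 16.6 and 7.05 CPM.

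Other genes of lysine breakdown did not show a called difference with Aass at day 1. Of 15 listed genes, all tested, edgeR called none in KO against WT at days 1, 3 and 4 (4 at an unadjusted p under 0.05 on each, and 2, 1 and 2 with DESeq2) and 1 at day 2, when it called 1.63% of all genes. Their median log2 difference at day 1 was 0.05. At that day Aldh7a1, which oxidises the product of the Aass steps, differed by 0.27, Aadat, the next aminotransferase, by 0.80 and Dhtkd1, of the 2-oxoadipate dehydrogenase, by -0.78. The day 2 call was Slc25a21, the mitochondrial carrier of 2-oxoadipate, at 0.309 CPM in WT and 2.21 CPM in KO (2.76 ± 0.58, adjusted p = 0.0249). That call was lost without KO replicate 2 (2.13), WT replicate 1 (2.11) or WT replicate 2 (4.27). Liver, in which Aass is abundant, was represented by 8 markers that summed to 0.901 to 5.46 CPM in the day 1 to 4 libraries, with Alb at 0 reads in both WT libraries of days 1, 2 and 3. Of the 2 liver markers tested, 1 was called lower in KO at day 3 and none on the other 3 days (none at an unadjusted p under 0.05 and none with DESeq2).

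Gfpt2 stayed above WT in KO on all 4 days by 1.86 to 2.00 times in the fitted levels, while its level went down in both genotypes. It was at 85.3 and 98.8 CPM in WT and 183.8 and 184.5 CPM in KO at day 1, and at 53.2 and 44.8 against 93.3 and 88.8 CPM at day 2. By day 3 its levels were 41.4 and 30.2 CPM in WT and 66.5 and 68.3 CPM in KO, and at day 4 36.3 and 35.4 against 69.2 and 65.5 CPM. The groups did not overlap on any day, and the KO libraries of day 2 lay within the WT range of day 1. The log2 differences were 1.00 ± 0.15, 0.89 ± 0.15, 0.92 ± 0.15 and 0.91 ± 0.15. The log2 ratio of day 4 to day 1 was -1.36 ± 0.16 in WT and -1.45 ± 0.15 in KO.

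The rest of the hexosamine pathway did not move with Gfpt2. Of 16 listed genes edgeR called none at day 1 (4 at an unadjusted p under 0.05, none with DESeq2), when it called 13.6% of all genes, and Gfpt1, the paralogue that catalyses the same step, differed by -0.66. At day 4 it called 4 of the 16 lower in KO and none higher, beside 7.04% of all genes called, and the list's median was -0.33. Uap1l1, related to the last enzyme of the pathway, was at 60.2 CPM in WT and 14.9 CPM in KO at day 4 (-2.02 ± 0.20, adjusted p = 1.81e-05). Gnpda1, which takes the amino group off glucosamine-6-phosphate, was at 69.9 and 35.1 CPM (-0.99 ± 0.17, adjusted p = 0.00213). Both calls held under every alternative run. Pgm3, the mutase of the pathway, was lower as well (-0.65 ± 0.13, adjusted p = 0.00741), a call lost without KO replicate 1 (-0.56) or WT replicate 1 (-0.54). Renbp (-0.71 ± 0.17, adjusted p = 0.0196) was not called once any 1 of the 4 libraries was left out (-0.69, -0.68, -0.63 and -0.73). Uap1l1 was called lower at day 3 too (-1.76 ± 0.20, adjusted p = 1.48e-04), except in a fit of the 4 libraries alone (-1.79), and was the 1 gene of the list called at day 2 (-0.81 ± 0.19, adjusted p = 0.0445), a call lost without any 1 library (-0.94, -0.69, -0.94 and -0.66).

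Aim2 held in KO at day 4 about the level that WT had at day 1. It was at 27.3 and 31.8 CPM in WT and 63.4 and 52.6 CPM in KO at day 1, and at 21.5 and 25.9 against 50.4 and 46.3 CPM at day 2. On day 3 its levels were 16.4 and 9.08 CPM in WT and 39.5 and 36.2 CPM in KO, and at day 4 9.52 and 9.88 CPM in WT and 29.2 and 32.4 CPM in KO. The groups did not overlap on any day, and the log2 differences were 0.97 ± 0.21, 1.03 ± 0.21, 1.58 ± 0.23 and 1.67 ± 0.23. Its ratio of day 4 to day 1 was -1.61 ± 0.23 in WT and -0.91 ± 0.21 in KO on the log2 scale, and whether these differ was not tested.

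Of 20 listed genes of cytosolic DNA sensing and the inflammasome, 11 were tested. Pycard, the adaptor that joins Aim2 to caspase-1, was the 1 called at day 1, when edgeR called 13.6% of all genes. It was at 11.7 CPM in WT and 26.3 CPM in KO (1.17 ± 0.32, adjusted p = 0.0326). It was not called without KO replicate 2 (0.78), WT replicate 1 (1.15) or WT replicate 2 (1.27). At days 2, 3 and 4 edgeR called none (1, 5 and 3 at an unadjusted p under 0.05, and 0, 1 and 0 with DESeq2). Ifi203, a relative of Aim2 in the same cluster of chromosome 1, was not called at day 4 (2.53 ± 1.71, adjusted p = 0.465). Macrophages, known for Aim2 and for Irak3, were represented by 11 macrophage and blood markers. These summed to 10.9 to 23.2 CPM in the day 1 to 4 libraries. Ptprc was at 0 reads in both libraries of 5 of the 8 groups, and Hbb-bs, a blood marker, in all of them. In each group 1 to 3 of the 11 markers were at 1 CPM or more in both libraries, with 3 in KO at days 1 and 2. Of 4 of these tested, edgeR called none on days 1 to 4 (2, 1, 2 and 1 at an unadjusted p under 0.05, and 1, 0, 0 and 0 with DESeq2).

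Dusp27 and Scrn1 also stayed above WT on all 4 days. Dusp27 was at 32.7 and 40.1 CPM in WT and 88.4 and 109.4 CPM in KO at day 1, and at 23.1 and 17.4 against 47.3 and 45.6 CPM at day 2. Day 3 libraries held 20.7 and 22.8 CPM in WT and 34.9 and 36.7 CPM in KO, and those of day 4 held 19.0 and 21.2 against 44.1 and 33.2 CPM. The log2 differences were 1.44 ± 0.18, 1.20 ± 0.19, 0.72 ± 0.19 and 0.94 ± 0.19. The log2 ratio of day 4 to day 1 was -0.86 ± 0.19 in WT and -1.36 ± 0.19 in KO. The groups did not overlap on any day, and the KO libraries of day 3 lay within the WT range of day 1. Of 8 tested markers of skeletal and cardiac muscle, the tissue Dusp27 is known from, 1 was called lower in KO at day 2 and 1 at day 4, and none at days 1 and 3 (2 and 1 at an unadjusted p under 0.05, none with DESeq2), and their summed level at day 1 was 93.4 to 99.8 CPM in WT and 87.95 to 93.4 CPM in KO.

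Scrn1 had the smallest difference in level between days 1 and 4 of the 10 genes. It was at 12.6 and 11.3 CPM in WT and 21.9 and 21.6 CPM in KO at day 1, and at 10.9 and 9.25 against 19.6 and 21.3 CPM at day 2. By day 3 its levels were 12.0 and 8.88 CPM in WT and 17.8 and 20.5 CPM in KO, and at day 4 8.80 and 9.02 against 17.1 and 15.5 CPM. Each of the 8 KO libraries was above each of the 8 WT libraries, and the log2 differences were 0.87 ± 0.18, 1.02 ± 0.19, 0.87 ± 0.19 and 0.87 ± 0.19. Its log2 ratio of day 4 to day 1 was -0.42 ± 0.19 in WT and -0.42 ± 0.18 in KO.

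**Figure D2:**
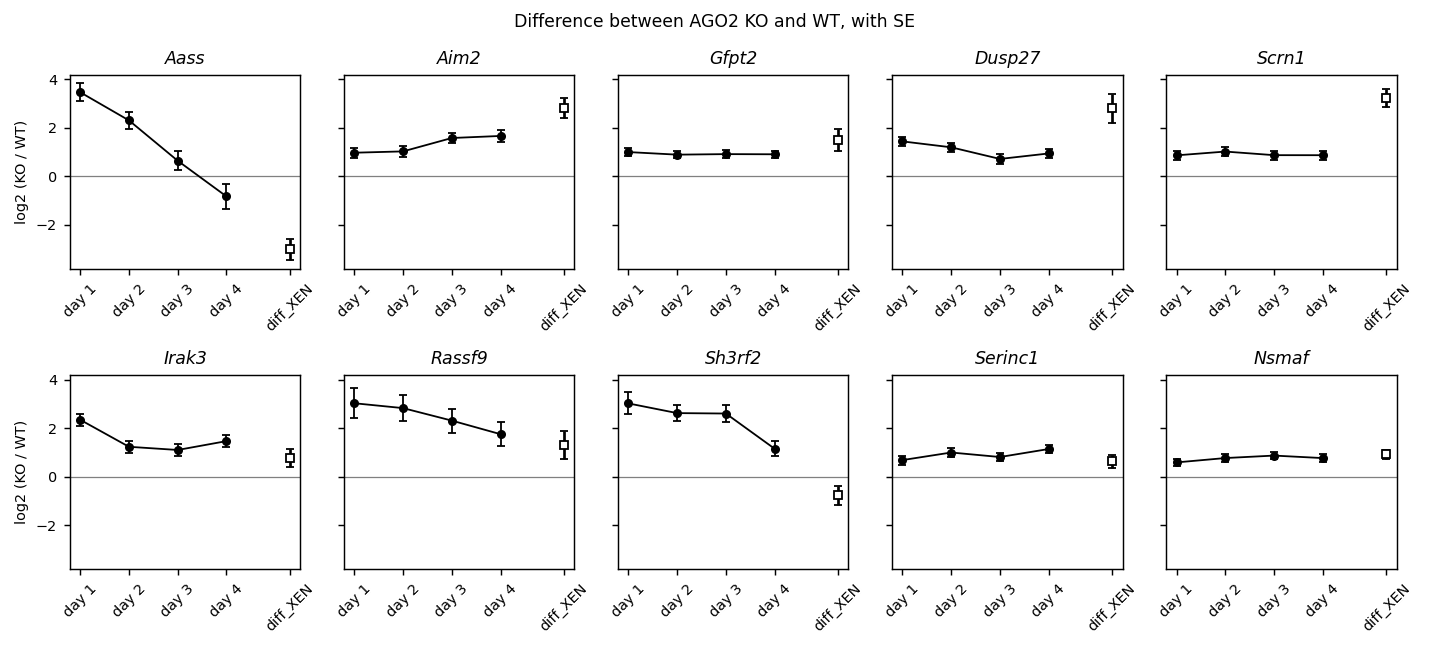
KO minus WT difference of each gene (log2 ratio, bars are standard errors of the edgeR fit) on days 1 to 4 (filled circles, joined) and in the separately sequenced diff_XEN libraries (open squares), with a line at 0. Aass goes from 3.47 at day 1 to -0.83 at day 4 and -3.02 in diff_XEN, Sh3rf2 turns from 1.15 at day 4 to -0.77 in diff_XEN, and the other 8 genes stay above 0.

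The remaining lasting genes, Irak3, Rassf9, Sh3rf2, Serinc1 and Nsmaf, were higher at day 4 than at day 1 in both genotypes, though not each day above the last. Rassf9 and Sh3rf2 in KO and Irak3 in WT had a lower mean at day 4 than at day 3. Irak3 was at 1.96 and 1.35 CPM in WT and 8.58 and 8.34 CPM in KO at day 1, and at 4.40 and 3.61 against 10.1 and 8.70 CPM at day 2. On day 3 its levels were 7.48 and 6.35 CPM in WT and 12.6 and 17.2 CPM in KO, and at day 4 5.66 and 6.23 against 17.9 and 15.0 CPM. Even its KO libraries of day 1 lay above each of the 8 WT libraries of the course, while WT mESC, measured apart, held 15.1 and 25.3 CPM. The log2 differences were 2.35 ± 0.26, 1.23 ± 0.24, 1.10 ± 0.24 and 1.47 ± 0.24, and the log2 ratio of day 4 to day 1 was 1.84 ± 0.27 in WT and 0.96 ± 0.23 in KO.

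The pathway that Irak3 restrains had calls at about the rate of all genes, of which 13.6% were called at day 1 and 7.04% at day 4. Of 19 tested genes of IL-1 and Toll-like receptor signalling (20 listed), edgeR called 3 lower at day 1, none at day 2 (1 at an unadjusted p under 0.05, none with DESeq2), 1 lower at day 3, when it called 4.83% of all genes, and 1 higher and 1 lower at day 4. The 3 at day 1 were the receptor genes Il1r1 (3.16 CPM in WT and 0.690 CPM in KO, -2.18 ± 0.51, adjusted p = 0.0221) and Il1rap (-1.26 ± 0.37, adjusted p = 0.0408) and the adaptor gene Tirap (-0.72 ± 0.22, adjusted p = 0.0430). Each lost its call without KO replicate 2 (-2.08, -0.76 and -0.45), WT replicate 1 (-2.12, -1.30 and -0.82) or WT replicate 2 (-2.16, -1.15 and -0.52). Sigirr, another restraining receptor of this family, was lower in KO at day 4 (24.7 CPM in WT and 8.27 CPM in KO, -1.57 ± 0.18, adjusted p = 9.06e-05), a call that held under every alternative run. At day 3 it was called as well (-0.78 ± 0.19, adjusted p = 0.0274), but not without KO replicate 1 (-0.74), KO replicate 2 (-0.79) or WT replicate 2 (-0.81), nor in the fit of 4 libraries (-0.81). Nfkb1 was higher at day 4 (0.59 ± 0.15, adjusted p = 0.0273), a call lost without KO replicate 1 (0.56), KO replicate 2 (0.67) or WT replicate 2 (0.47) and in the fit of 4 libraries (0.57).

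Serinc1 and Nsmaf, the more abundant of these genes, had the smallest differences at day 1. Serinc1 was at 52.7 and 53.2 CPM in WT and 95.5 and 74.3 CPM in KO at day 1, and at 56.0 and 63.7 against 104.8 and 133.9 CPM at day 2. Day 3 libraries held 109.4 and 102.6 CPM in WT and 157.6 and 214.3 CPM in KO, and those of day 4 held 135.8 and 114.8 against 298.1 and 254.1 CPM. The KO libraries of day 2 thus reached the WT level of day 3, and the log2 differences were 0.68 ± 0.18, 1.00 ± 0.18, 0.81 ± 0.18 and 1.14 ± 0.18. Nsmaf was at 22.5 and 23.8 CPM in WT and 35.0 and 34.5 CPM in KO at day 1, and at 37.3 and 40.1 against 60.7 and 71.0 CPM at day 2. At day 3 it was at 49.9 and 39.3 CPM in WT and 73.4 and 89.5 CPM in KO, and at day 4 at 60.7 and 56.3 against 96.4 and 102.3 CPM. The groups did not overlap on any day, with log2 differences of 0.59 ± 0.15, 0.77 ± 0.15, 0.87 ± 0.15 and 0.77 ± 0.15. The log2 ratio of day 4 to day 1 was 1.24 ± 0.18 in WT and 1.70 ± 0.19 in KO for Serinc1, and 1.34 ± 0.15 in WT and 1.52 ± 0.15 in KO for Nsmaf.

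Around Nsmaf, 16 genes of the TNF receptor and of sphingomyelin and ceramide turnover were listed and tested. The 1 called in KO against WT was Gnb2l1, a scaffold gene known to bind Nsmaf, at day 1, when edgeR called 13.6% of all genes. It was at 1912 CPM in WT and 2871 CPM in KO (0.59 ± 0.17, adjusted p = 0.0412). It was not called without KO replicate 2 (0.32), WT replicate 1 (0.66) or WT replicate 2 (0.60) and in the fit of 4 libraries (0.59). At days 2, 3 and 4 edgeR called none (1, 4 and 2 at an unadjusted p under 0.05, none with DESeq2). The sphingomyelinase gene Smpd2 differed by 0.36 at day 1 and -0.14 at day 4 and was called on neither day.

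Rassf9 and Sh3rf2 were the least abundant of the 10 at day 1. Rassf9 was at 0.240 and 0.168 CPM in WT and 2.09 and 1.34 CPM in KO at day 1 (6 and 4 reads against 54 and 29), and at 0.597 and 0.694 against 4.07 and 5.21 CPM at day 2. At day 3 it was at 2.77 and 0.615 CPM in WT and 8.27 and 7.85 CPM in KO, and at day 4 at 1.53 and 1.79 against 3.83 and 7.36 CPM. The WT libraries of day 3 stand apart from each other, and the day 3 log2 difference of 2.31 ± 0.50 was 3.71 without WT replicate 1 and 1.57 without WT replicate 2. The differences on the other days were 3.03 ± 0.63 at day 1, 2.83 ± 0.52 at day 2 and 1.75 ± 0.50 at day 4. Sh3rf2 was at 0.120 and 0.168 CPM in WT and 1.28 and 1.15 CPM in KO at day 1 (3 and 4 reads against 33 and 25), and at 0.978 and 0.694 against 4.32 and 5.97 CPM at day 2. At day 3 it was at 1.20 and 1.09 CPM in WT and 7.93 and 5.91 CPM in KO, and at day 4 at 3.41 and 2.29 against 5.71 and 6.87 CPM. From day 2 on, each KO library of both genes was above each of the 8 WT libraries. The differences of Sh3rf2 were 3.02 ± 0.45, 2.62 ± 0.33, 2.61 ± 0.34 and 1.15 ± 0.31, so its gap was smallest at day 4, when the WT level was highest.

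The log2 ratio of day 4 to day 1 was 2.98 ± 0.66 in WT and 1.70 ± 0.47 in KO for Rassf9, and the KO value was 1.43 without KO day 1 replicate 2 and 1.10 without KO day 4 replicate 2. For Sh3rf2 it was 4.24 ± 0.44 in WT and 2.37 ± 0.32 in KO. Of 13 tested genes of the JNK cascade, which Sh3rf2 is known to act on, edgeR called none at days 1, 2 and 3 (4, 1 and 6 at an unadjusted p under 0.05, and 2, 0 and 0 with DESeq2). At day 4 it called the scaffold genes Mapk8ip1 higher (0.72 ± 0.17, adjusted p = 0.0160) and Mapk8ip2 lower (-1.84 ± 0.36, adjusted p = 0.00606), beside 7.04% of all genes. Both lost their call without KO replicate 1 (0.63 and -1.52), and Mapk8ip1 also without WT replicate 1 (0.83) or WT replicate 2 (0.67). Mapk8ip2 was not called in the fit of 4 libraries either (-1.86).

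Of 28 tested close paralogues of the 10 genes (30 listed), edgeR called 6 lower and 1 higher in KO at day 1, beside 13.6% of all genes called, with a list median of -0.52. The list median was 0.11 at day 2, 0.13 at day 3 and -0.04 at day 4. Lower were Rassf8 (-1.25 ± 0.20, adjusted p = 0.00523), Lrba (-1.03), Serinc2 (-1.30), Sh3rf1 (-1.02), Lyst (-1.55) and Rassf3 (-0.53), and higher was Scrn2 (0.55, adjusted p = 0.0491). Relatives of Rassf9, Serinc1, Sh3rf2 and Nsmaf were thus among the lower ones, and the relative of Scrn1 was the higher one. All 7 calls, like every other day 1 call in the lists, were lost without KO replicate 2 or without WT replicate 2. At day 2 it called Rassf6 lower (-1.54), at day 3 Rassf6 lower (-1.43) and Rassf2 higher (1.16), and at day 4 Rassf6 (-1.79 ± 0.36, adjusted p = 0.00711) and Rassf8 (-0.76) lower, each of these lost without at least 1 of the libraries. On these days it called 1.63%, 4.83% and 7.04% of all genes. Over the 7 lists of 118 tested genes and the 4 days there were 29 calls of 23 genes, and 3 of these calls held under every alternative run, those of Uap1l1, Gnpda1 and Sigirr at day 4.

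**Figure D3:**
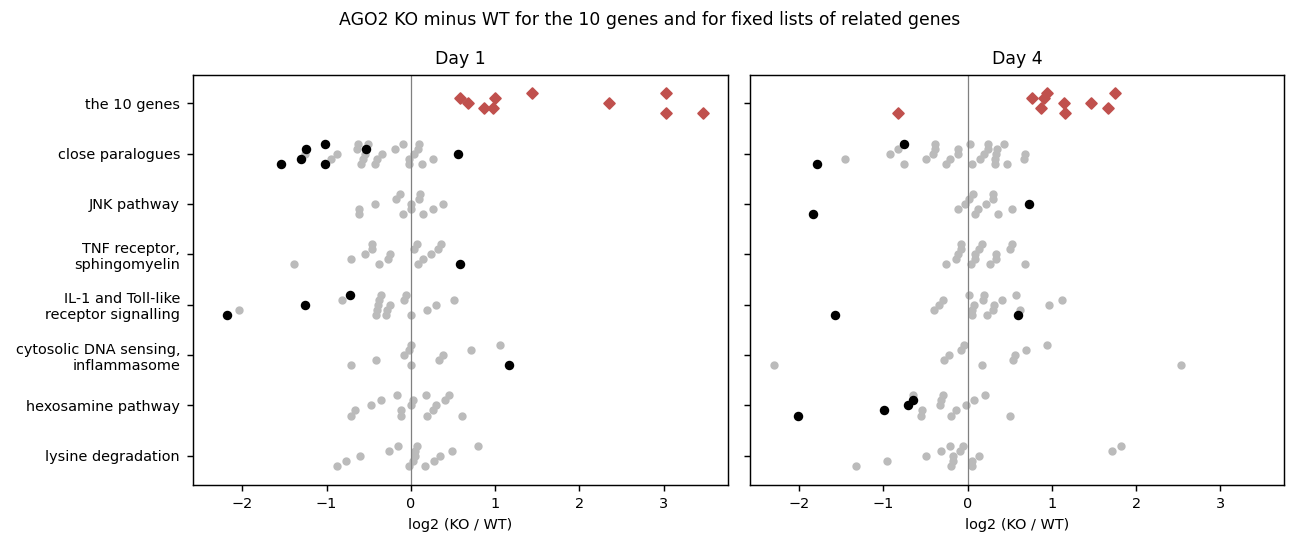
KO minus WT log2 ratio at day 1 and day 4 of the 10 genes (red diamonds) and of the genes in 7 lists of related genes, black where called by edgeR (adjusted p below 0.05) and grey where not. The 10 genes lie at 0.59 to 3.47 at day 1, as they were chosen to, while called paralogues at day 1 and called hexosamine genes at day 4 lie mostly below 0.

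The 9 lasting genes differed in their course. In both genotypes Irak3, Rassf9, Sh3rf2, Serinc1 and Nsmaf had a positive log2 ratio of day 4 to day 1 and Aim2, Gfpt2, Dusp27 and Scrn1 a negative one, that of Scrn1 being small. The median over all 10 genes was 0.41 in WT and 0.27 in KO, beside 0.01 and -0.02 over all genes. As a description over the 16 libraries, which share genotype and day, Pearson's r of log2 CPM between the 5 genes higher at day 4 ran from 0.84 to 0.95, the highest being that of Sh3rf2 with Nsmaf. Between Aim2, Gfpt2, Dusp27 and Scrn1 it ran from 0.79 to 0.94, and between Aass and these 4 from 0.55 (Scrn1) to 0.75 (Gfpt2). Between Aass and the 5 genes higher at day 4 it was -0.46 to -0.08.

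**Figure D4:**
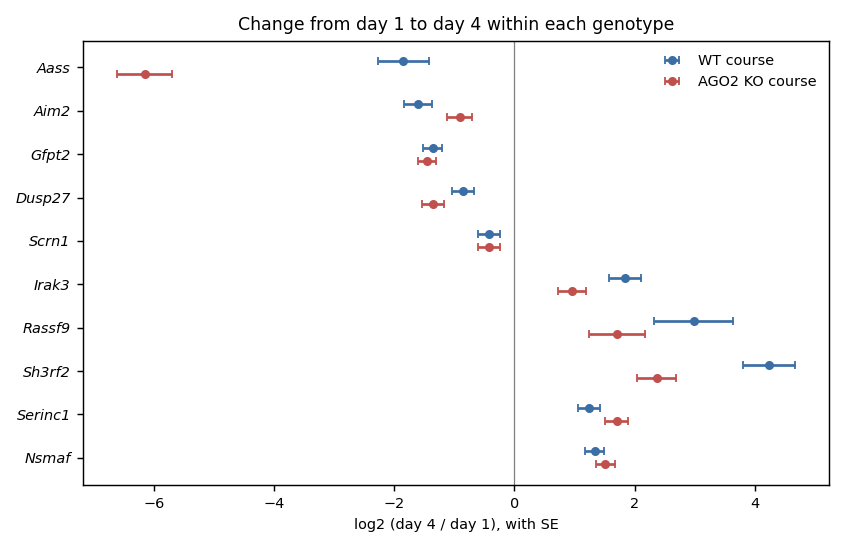
Change of each gene from day 1 to day 4 (log2 ratio, bars are standard errors of the edgeR fit) in the WT (blue) and AGO2 KO (red) course, with a line at 0. Irak3, Rassf9, Sh3rf2, Serinc1 and Nsmaf lie above 0 in both genotypes and the other 5 genes below it, with Aass at -6.15 in KO and -1.85 in WT.

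The genes most like each of the 10 over the 16 libraries, by the same r, were as follows. For Aass they were Zbtb45 (0.960), Tagln3 (0.947) and N4bp3 (0.940), and for Aim2 Pald1 (0.965), Wwp2 (0.960) and Syn1 (0.949). For Gfpt2 they were Ppa1 (0.968), Ccnd1 (0.963) and Crmp1 (0.962), and for Dusp27 Prune (0.967), Nup88 (0.952) and Gfpt2 (0.942). For Scrn1 the values were lower, with Xlr3c (0.926), Ado (0.920) and Plekhm1 (0.906). Among the genes higher at day 4, Nsmaf had Sulf1 (0.986), Galnt7 (0.978) and H19 (0.976), and Serinc1 had Zbtb38 (0.973), Tnfaip1 (0.968) and Rab22a (0.966). Sh3rf2 had Nsmaf (0.951), Acsl5 (0.949) and Gja1 (0.948), Rassf9 had Kctd12b (0.946), Acsl5 (0.945) and Plagl1 (0.941), and Irak3 had Rab11b (0.950), Mthfd2l (0.930) and Rassf9 (0.918). These likenesses describe shared profiles across genotype and day and carry no test.

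The endpoint libraries were sequenced and normalised apart from the course, so levels are compared only among them. In WT, diff_XEN cells differed from stem cells in the direction of the course for most of the 10 genes, which the choice favours for the lower ones. Of 10 tested, edgeR called 2 higher and 5 lower in WT diff_XEN than in WT mESC, beside 27.2% and 25.3% of 17936 genes. The median of the 10 was -1.94. The choice favours genes low in WT diff_XEN, so these counts and p-values lean towards lower and are no independent support. Dusp27 went from 56.8 and 32.6 CPM in WT mESC to 3.09 and 1.20 CPM in WT diff_XEN (-4.38 ± 0.61, adjusted p = 0.00122). Aim2 went from 34.4 and 17.5 to 1.76 and 1.20 CPM (-4.13 ± 0.49, adjusted p = 7.15e-04), and Gfpt2 from 98.3 and 149.1 to 6.74 and 9.02 CPM (-3.97 ± 0.49, adjusted p = 7.77e-04). These 3 genes, lower at day 4 than at day 1 in the course, were thus much lower in WT diff_XEN than in WT mESC. The counts of WT mESC were deposited apart from those of diff_XEN. Culture state and the earlier study therefore cannot be told apart in this comparison.

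Irak3, higher at day 4 than at day 1 in the course, went from 15.1 and 25.3 CPM in WT mESC to 3.25 and 3.23 CPM in WT diff_XEN (-2.64 ± 0.41, adjusted p = 0.00194). Nsmaf was higher in WT diff_XEN, at 40.2 and 49.8 CPM against 15.6 and 17.98 CPM (1.42 ± 0.23, adjusted p = 0.00234). Serinc1 was at 92.4 and 105.1 CPM against 55.8 and 55.3 CPM (0.83 ± 0.29, adjusted p = 0.0425), a call lost without any 1 of the 4 libraries (0.76 to 0.97). Aass was at 3.57 and 4.16 CPM against 16.6 and 7.05 CPM (-1.61 ± 0.47, adjusted p = 0.0238), a call lost without WT diff_XEN A (-1.46), WT diff_XEN B (-1.69) or WT mESC replicate 1 (-0.84). Scrn1 (-0.90 ± 0.36, adjusted p = 0.0661), Rassf9 (-2.27 ± 0.85, adjusted p = 0.0548) and Sh3rf2 (2.23 ± 0.87, adjusted p = 0.0634) were not called. The WT mESC libraries of Sh3rf2, at 2.09 and 0.219 CPM, stand far apart, and the gene was called without replicate 1 (4.64, adjusted p = 0.00456) and by DESeq2 (2.25, adjusted p = 0.0188). Rassf9, at 0.984 and 0.219 CPM in WT mESC, passed the filter on low counts in this fit only with the KO libraries. It was called without WT mESC replicate 2 (-2.97).

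Between KO and WT diff_XEN, 8 of the 10 genes lay above WT in both libraries (38.1% of 16671 genes) and 2 below (41.4% of genes). The median log2 difference was 1.11. Among the 8, Rassf9 passed the filter on low counts here only through its KO libraries, so its place above WT is no support. Aass was the most reduced, at 3.57 and 4.16 CPM in WT and 0.547 and 0.405 CPM in KO (-3.02 ± 0.43), which continues the order of day 4. Sh3rf2, lasting through day 4, was below WT here, at 6.63 and 4.32 CPM in WT and 3.90 and 2.49 CPM in KO (-0.77 ± 0.40). Scrn1 had the largest difference, at 4.68 and 2.93 CPM in WT and 27.1 and 43.1 CPM in KO (3.24 ± 0.38), which is also above both WT mESC libraries (7.39 and 6.85 CPM). Aim2 was at 13.1 and 7.70 CPM in KO (2.82 ± 0.41) and Dusp27 at 20.3 and 9.67 CPM (2.81 ± 0.59, and 3.62 without WT diff_XEN A), both between the WT diff_XEN and the WT mESC libraries. Gfpt2, at 31.6 CPM in clone C4 and 12.5 CPM in clone 5-3 (1.49 ± 0.46), lay there too, and its difference was 0.74 without clone C4.

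The other 4 genes lay above WT by smaller differences than those of Scrn1, Aim2, Dusp27 and Gfpt2. Nsmaf was at 91.3 and 76.0 CPM in KO (0.92 ± 0.19) and Serinc1 at 191.2 and 109.6 CPM (0.62 ± 0.28), the latter close to WT in clone 5-3. Irak3 was at 6.90 and 4.08 CPM in KO against 3.25 and 3.23 CPM (0.77 ± 0.37), and Rassf9 at 0.273 and 0.318 CPM against 0.135 and 0.109 CPM (1.30 ± 0.59), from 4 and 11 reads against 5 and 4. Ago2 itself was at 389 and 427 CPM in WT, 115 CPM in clone C4 and 9.35 CPM in clone 5-3, so the clones differ in Ago2 reads by more than any of the 10 genes differs between them.

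**Figure D5:**
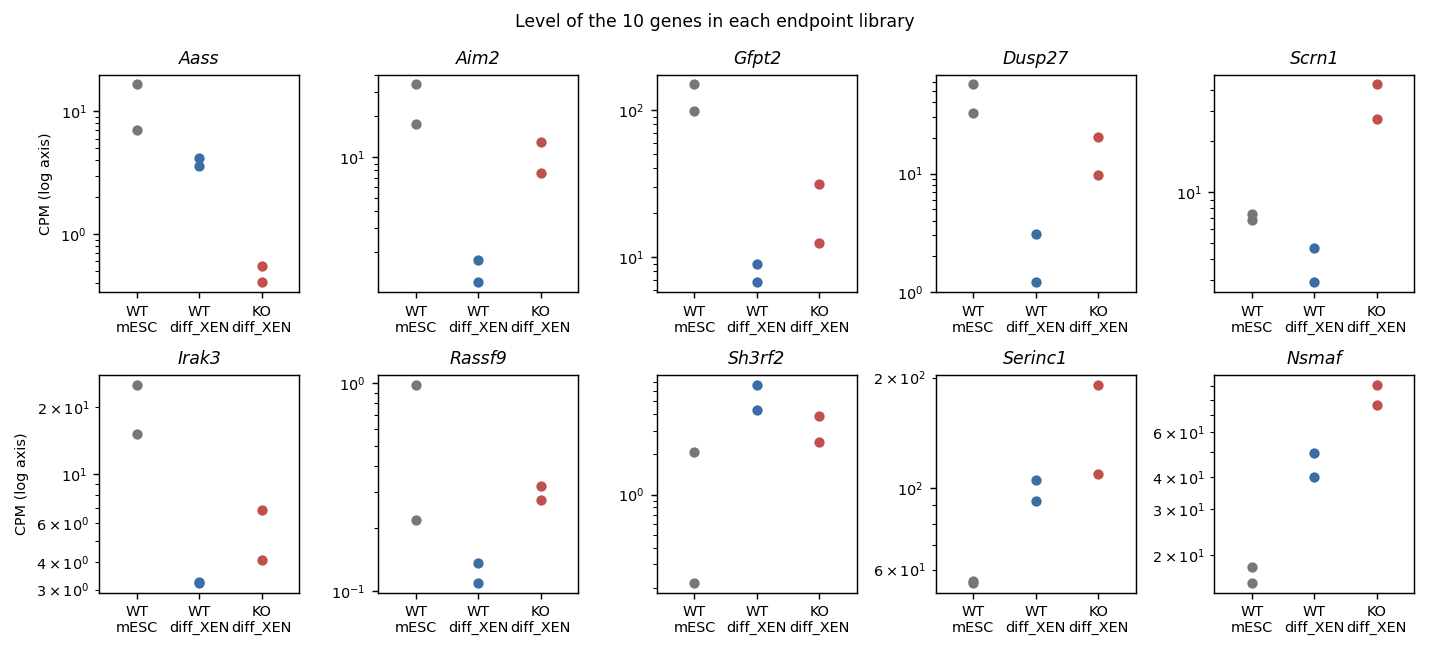
Level of each of the 10 genes (CPM, log axis, 1 scale per gene) in the 6 endpoint libraries, 2 each of WT mESC (grey), WT diff_XEN (blue) and AGO2 KO diff_XEN (red), 1 point per library. Scrn1 is highest in KO diff_XEN (27.1 and 43.1 CPM), Aass is lowest there (0.547 and 0.405 CPM), and Aim2, Gfpt2 and Dusp27 lie between WT diff_XEN and WT mESC.

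The KO endpoint cells differed widely from the WT ones, with 47.0% of genes called, and cell type markers were called in both directions. All 10 primitive endoderm and XEN markers and 6 of 8 pluripotency markers were called lower in KO, as were 6 of 8 visceral endoderm markers. Of 8 fibroblast and mesenchyme markers 5 were called higher and 1 lower, with a summed level of 350 to 732 CPM in WT and 4602 to 5775 CPM in KO and Lum at 0 reads in both KO libraries. Of 5 tested neural markers 4 were called higher (57.5 to 86.8 CPM in WT and 431 to 501 CPM in KO, with Neurog2 at 0 reads in KO), and of 7 tested muscle markers 3 were called higher and 2 lower (34.1 to 58.7 CPM and 240 to 246 CPM, with Myod1 and Myog at 0 reads in KO). Of 3 tested macrophage and blood markers 1 was called lower. During the course the fibroblast list had 1 call in each direction over the 4 days (at days 1 and 2), and the neural list 1 higher call on each day. Their part in the levels of the 10 genes was not tested.

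Counts for the lists around the 10 genes at this endpoint stand beside the 47.0% of all genes called, and the genes named for it were chosen after their values were seen. Of 16 hexosamine genes 12 were called lower in KO and 2 higher, Hk1 (2.01 ± 0.33, adjusted p = 0.00728) and Gne (0.73 ± 0.22, adjusted p = 0.0434). Hk1 lost its call without WT diff_XEN B (1.82), as did Gne (0.57), which also lost it without clone C4 (0.59) or clone 5-3 (0.89). Among the lower ones were Uap1l1 (-2.54 ± 0.26, adjusted p = 0.00278), Gnpda1 (-1.83 ± 0.16, adjusted p = 0.00246) and Gfpt1, at 220 CPM in WT and 102 CPM in KO (-1.07 ± 0.26, adjusted p = 0.0226). Gfpt1 lost its call without clone C4 (-0.84), clone 5-3 (-1.30) or WT diff_XEN B (-0.74). Pgm3, Ogt, Mgea5, Gnpda2, Nagk and Amdhd2 each lost their lower call without at least 1 of the libraries, and Nagk also with DESeq2. Gfpt2 was thus higher where the listed genes of its pathway had a median of -1.04, though many of the lower calls did not hold.

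Of 12 tested genes of cytosolic DNA sensing, 6 were called higher in KO diff_XEN. These were Zbp1, a sensor of Z-form nucleic acids (0.326 CPM in WT and 19.1 CPM in KO, 5.88 ± 0.45, adjusted p = 0.00224), the signalling adaptor gene Tmem173 (3.21 ± 0.40, adjusted p = 0.00378), the pore-forming Gsdmd (2.32 ± 0.35, adjusted p = 0.00586), the DNA sensor gene Mb21d1 (1.49 ± 0.34, adjusted p = 0.0183), Ifi204 and Mnda. The last pair belong to the gene cluster of Aim2, whose similar copies make their counts uncertain. Zbp1, Ifi204 and Mnda passed the filter on low counts here only through their KO libraries, so their place above WT is no support. Mb21d1 was no longer called when any 1 library was dropped (1.49, 1.49, 1.54 and 1.48). Casp8, Nlrp3 and Pycard were called lower, though Nlrp3 passed the filter only through its WT libraries. Pycard, higher at day 1, was here at 7.13 CPM in WT and 2.05 CPM in KO (-1.77 ± 0.37, adjusted p = 0.0143). It was not called without clone C4 (-1.72) or clone 5-3 (-1.78).

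Of 19 IL-1 and Toll-like receptor genes 4 were called higher (Irak2, Il1rap, Nfkb1 and Nfkbia) and 6 lower, among them Tlr4, Tlr2 and Sigirr. Tlr4 passed the filter on low counts only through its WT libraries, so its place below WT is no support. Il1rap was not called without clone 5-3 (0.67), WT diff_XEN A (1.31) or WT diff_XEN B (1.56), Nfkb1 not without clone C4 (0.89), and Sigirr not without clone C4 (-1.62) or clone 5-3 (-1.82). Irak2, a kinase gene related to Irak3, was at 25.1 CPM in WT and 92.8 CPM in KO (1.91 ± 0.23, adjusted p = 0.00350). Of 13 lysine breakdown genes 1 was called higher (Aldh7a1) and 4 lower (Dhtkd1, Dld, Acat1 and Aldh9a1), a smaller share than among all genes. Aldh7a1 was not called without clone C4 (0.86) or clone 5-3 (0.98), nor Acat1 without clone C4 (-0.50), clone 5-3 (-0.98) or WT diff_XEN B (-0.59). Dhtkd1 was at 27.7 CPM in WT and 7.82 CPM in KO (-1.80 ± 0.28, adjusted p = 0.00619). Of 16 TNF receptor and sphingomyelin genes 2 were called higher (Cerk and Cers5) and 2 lower (Asah1 and Sgms2), of which Sgms2 was not called once any 1 library was left out (-0.99 to -1.29). Of 13 JNK cascade genes 6 were called higher, among them Jun (53.3 CPM in WT and 231 CPM in KO, 2.14 ± 0.23, adjusted p = 0.00293), and 2 lower (Mapk8 and Mapk9). Without clone C4 or clone 5-3 neither Mapk8 (-1.17 and -1.18) nor Mapk9 (-0.83 and -0.74) was called. Among the higher ones, the same held for Map3k10 (1.20 and 1.26) and Map2k7 (0.57 and 0.61). Of 27 tested close paralogues 5 were called higher (Rassf10, Sh3rf1, Scrn2, Serinc5 and Nbea) and 9 lower, of which 5 were Rassf3, Rassf4, Rassf5, Rassf6 and Rassf8. Scrn2 was not called without clone C4 (0.93), clone 5-3 (0.99) or WT diff_XEN B (0.90). Rassf10 was not called without clone C4 (1.70) or WT diff_XEN A (1.67), and Serinc5 not without clone C4 (1.005). Among the lower ones, Lrba lost its call without clone C4 (-0.96), and Styx once any 1 library was left out (-1.73 to -2.53). Sh3rf1 differed by -1.02 at day 1, 0.32 at day 4 (not called) and 1.52 ± 0.24 here (adjusted p = 0.00623).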

How the data were processed

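RNA-seq of 24 samples in 12 groups of 2 was deposited, and 22 libraries were used here, 16 of days 1 to 4 and 6 of the endpoint. The values are whole read counts per gene deposited by the authors, made with STAR 2.5.0c and featureCounts 1.4.5-p1 on mm10 per the submitters' processing notes, and the annotation release and strand setting are not given in the sources used here. For the endpoint table, WT mESC counts were joined by gene identifier, and 3 columns of the series table matched no single sample and were not used. Reads were compared with edgeR 4.0.16 in R 4.3.3 (TMM scaling, filterByExpr, robust quasi-likelihood test, group means, Benjamini-Hochberg threshold 0.05), separately for the course and the endpoint, and the script was tested on simulated data. DESeq2 1.42.0, other scaling, no filter, a fit of the compared libraries alone, a replicate block and leaving out each library were alternatives.

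The members and lists were chosen with earlier results of these data known. A test of their change from day 1 to day 4 was planned and is given without p-values, because it shares libraries with the choice. The test of WT diff_XEN against WT mESC shares the diff_XEN libraries with the choice too, and its p-values carry that limit. Planned for naming were the 10 genes, Ago2, called paralogues and up to 4 called genes per list by smallest p. Planned too were the 3 genes most correlated with each member (predicted genes left out) and the nearest tested gene on either side. The text departs from this plan, as it also names genes not called and, for some lists, more than 4 called genes. Replicates of a group differed by more than counting noise (chi-square per degree of freedom 12.6 to 149), so none were merged.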

Additional observations from a re-analysis of the deposited data

Results flagged for a closer look

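The KO minus WT difference of Aass had opposite signs in different comparisons, with both KO libraries above both WT libraries at day 1 (log2 3.47) and day 2 (2.31) and both below at day 4 (-0.83) and in diff_XEN (-3.02). The difference between these days was not tested, and the KO libraries of day 4 rest on 9 and 21 reads.

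Sh3rf2 lay above WT in both KO libraries at day 1 (3.02), day 2 (2.62), day 3 (2.61) and day 4 (1.15) and below WT in both at diff_XEN (-0.77). This difference was not tested either, and the diff_XEN libraries were sequenced apart from the course.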

How the results depend on the processing

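The number of genes called in KO against WT moved with the processing. Without the low-count filter it was 3754 at day 1 (2406 as reported), 1094 at day 2 (288), 2035 at day 3 (854) and 2119 at day 4 (1246). DESeq2 called 603 at day 2 and 1344 at day 3, and a fit of the 4 compared libraries 1440 and 35. Leaving out 1 library gave 45 (without KO replicate 2) to 4225 at day 1, 49 to 105 at day 2, 271 to 2643 at day 3, 443 to 835 at day 4 and 4180 to 6952 in diff_XEN (7835). It gave 6081 to 7274 for the WT course (8588), 10025 to 11208 for the KO course (11724) and 6389 to 9043 for WT diff_XEN against mESC (9415). The median difference of the 10 genes stayed at 1.17 to 1.396, 1.10 to 1.26, 0.90 to 1.14 and 0.97 to 1.11 on days 1 to 4 and 0.79 to 1.15 in diff_XEN. The only reversal was Aass at day 3, at -0.15 without KO replicate 1. The causes were not tested.

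Same-numbered libraries share only a number (correlation of their deviations -0.04, 0.08, -0.08 and 0.39 on days 1 to 4, 0.11 in the WT and -0.13 in the KO course). With a replicate block the counts were 1881, 249, 767 and 1112 on days 1 to 4, 8381 for the WT and 11570 for the KO course, and 11600 with the KO numbers crossed. The block also ended the calls of Tirap, Il1rap, Gnb2l1 and Scrn2 at day 1 (adjusted p = 0.0568, 0.0538, 0.0547 and 0.0640) and Uap1l1 at day 2 (0.0593). The diff_XEN columns carry no replicate numbers. With 2 libraries a group and under 10 WT reads for Rassf9 and Sh3rf2 at day 1, their folds are imprecise.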
